A study of Mus musculus and Homo sapiens with 30 samples.

Results

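A panel of 28 mouse genes that encode lysosomal enzymes, lysosomal membrane proteins and subunits of the lysosomal proton pump was followed in 2 mouse mammary cell lines, E0771 and NMuMG, each kept in 3 media. The genes were chosen by symbol from what they encode, with earlier results of these data known, so shares set beside all genes are descriptive. Each matched 1 of the 56980 gene IDs in the mouse count table. By role they comprised 4 membrane proteins, 7 proteases and peptidases, 6 glycosidases, 6 genes grouped as lipid-handling (enzymes, activators and carriers), and 5 proton pump subunits. The lipid-handling group also holds Grn, the progranulin gene, which was placed there for counting only. All 28 passed the filter on low counts in both lines, in which 13813 (E0771) and 15014 (NMuMG) genes were tested.

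E0771 is a mouse mammary tumour line and NMuMG is a line of mouse mammary gland epithelium, although the labels list both under breast cancer. After 36 h of growth the cells spent 16 h in growth medium alone (control) or in a mix with 50% inguinal adipocyte secretome, the fluid conditioned by fat cells of the groin depot, labelled lean or obese. Every group held DMEM with 10% FBS, and the 3 NMuMG groups also had insulin (10 mcg/ml) and a stated glucose level (4.5 g/L), so line and growth medium cannot be told apart. There were 3 libraries per line and medium (18 in all), and the control medium held no secretome, so that the comparison of lean with obese is the one matched for secretome share. The species of the adipocytes and the number of separate cultures are not given in the labels, and p-values therefore measure the spread between these samples, which may be technical.

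Lysosomes are acidic compartments in which hydrolases break down proteins, glycans and lipids delivered by endocytosis and autophagy. The V-ATPase pumps protons into the lumen, heavily glycosylated proteins such as LAMP1 and LAMP2 line the membrane, and most soluble enzymes arrive through mannose 6-phosphate receptors. Many lysosomal genes carry an E-box in their promoter that the transcription factors TFEB and TFE3 can bind, and cultured mammary cells use the compartment for nutrient recycling and growth signalling through mTORC1.

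Promoter stretches of RefSeq on GRCm38.p6 (250 bases before to 50 bases after each start) were present for 24 of the 28 genes, 2 of them with more than 1 start. The palindrome CACGTG, which reads the same on both strands, occurred in the stretch of 9 of these 24 genes (37.5%) and in 8.09% of all 27025 genes with a stretch (7.15% of 32851 stretches). The longer palindrome TCACGTGA, which contains the first motif, occurred in 6 of 24 (25%) and in 1.12% of all genes (0.974% of stretches). The sequences of 6 of the 9 genes are shown because they are what these members share beyond their function. Each is written 5′ to 3′ on the gene's own strand with CACGTG in capitals and ends before the RefSeq start. By the gene bounds of GENCODE M21, those of Ctsa, Ctsd, Ctsl and Atp6v1a lie inside the gene. The genes not shown are Lamp1, Mcoln1 and Atp6v0d1.
Ctsa, chr2:164833749-164833772, + strand: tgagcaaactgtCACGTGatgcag
Ctsd, chr7:142387908-142387937, - strand: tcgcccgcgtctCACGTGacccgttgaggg
Ctsl, chr13:64370739-64370768, - strand: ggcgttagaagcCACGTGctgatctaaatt
Gla, chrX:134601182-134601211, - strand: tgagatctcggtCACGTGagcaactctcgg
Glb1, chr9:114401018-114401047, + strand: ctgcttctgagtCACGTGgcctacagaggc
Atp6v1a, chr16:44139373-44139402, - strand: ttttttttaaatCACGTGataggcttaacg
Lamp1 held 4 copies, all in the 73 bases before its start. Mcoln1, Ctsa, Ctsd and Gla each held 2 copies, of which the stretches of the last 3 show 1. A match is a description of letters, and no binding was measured.

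Total counts were between 22929035 and 31094119 per library. Of 9 epithelial markers, E0771 showed only Krt8 (229 to 259 CPM, counts scaled by library size), with Epcam, Krt18, Cdh1, Krt7 and Cldn4 at or under 0.29 CPM and Krt19, Cldn3 and Esrp1 at 0, whereas NMuMG had Krt8, Krt18, Krt19, Cdh1 and Krt7 at 105 CPM or more. The remaining epithelial markers were low in NMuMG too: Epcam reached 2.64 CPM at most, Cldn4 2.45, Cldn3 0.111 and Esrp1 0.0423 CPM. The adipocyte markers Adipoq, Plin1, Lep and Cfd and the macrophage markers Adgre1 and Itgam were at or under 0.225 CPM in every library of both lines. Other genes of these lists were higher: Lipe was at 6.73 to 11.5 CPM over both lines, Cidec reached 2.08 CPM in NMuMG and Fabp4 1.53 CPM in E0771, Lyz2 reached 3.75 CPM in E0771, Cd68 reached 3.79 CPM in NMuMG and Mrc1 was at 72.5 to 91.3 CPM in NMuMG. In bulk RNA, fewer cells of a type and less RNA per cell cannot be told apart.

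Some libraries stood apart for these genes. E0771 control 1 was the lowest control library for 24 of the 28 members, against 35.4% of all tested genes, and E0771 obese 1 was the lowest obese library for 22. E0771 obese 3 was the highest obese library for 19 members, and NMuMG lean 3 was the highest lean library for 23. Within a group the coefficient of variation of a member had a median between 2.47% and 4.59%.

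In control medium the lines already differed in most members (89.3%), a share near that of all tested genes. edgeR's quasi-likelihood test with Benjamini-Hochberg adjustment called 25 of 28 between the lines at an adjusted p under 0.05 (12 higher and 13 lower in NMuMG), where 80.5% of all tested genes were called (43.4% higher and 37.1% lower). Neu1, the lysosomal sialidase, was higher in NMuMG by 2.58 on the log2 scale (SE 0.0606, adjusted p = 2.97e-32), and Lipa, the acid lipase that hydrolyses cholesteryl esters and triglycerides, by 2.40 (SE 0.0548). Hexa, the alpha subunit of beta-hexosaminidase, was lower in NMuMG, with a log2 difference of -2.75 (SE 0.0605, adjusted p = 3.21e-34). Grn, which encodes the growth factor-like lysosomal protein progranulin, was lower with -1.88, Ctsz (cathepsin Z) with -1.63 and Gla (alpha-galactosidase A) with -1.54. Ctsa, Tpp1 and Atp6v1b2 were not called, with log2 differences of 0.10, 0.07 and 0.02. These are levels before any secretome, and they set the scale on which each line's changes are read.

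Summed over the 28 genes, the level in E0771 was 6060.3, 6357.0 and 6596.1 CPM in the control libraries, 7200.4, 7407.9 and 7615.2 CPM with the obese secretome and 7095.0, 7250.0 and 7120.9 CPM with the lean secretome. Both secretome groups lay above all controls, and the lean and obese libraries overlapped. In NMuMG the sums were 4777.4, 4762.6 and 4752.0 CPM in control medium, 4966.5, 4800.4 and 4998.2 CPM with obese and 5598.1, 5604.8 and 5927.4 CPM with lean secretome. There the lean libraries lay above all others, and each obese library lay above each control by a smaller margin. The sum was thus highest with lean secretome in NMuMG, and above control with either secretome in E0771.

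**Figure D1:**
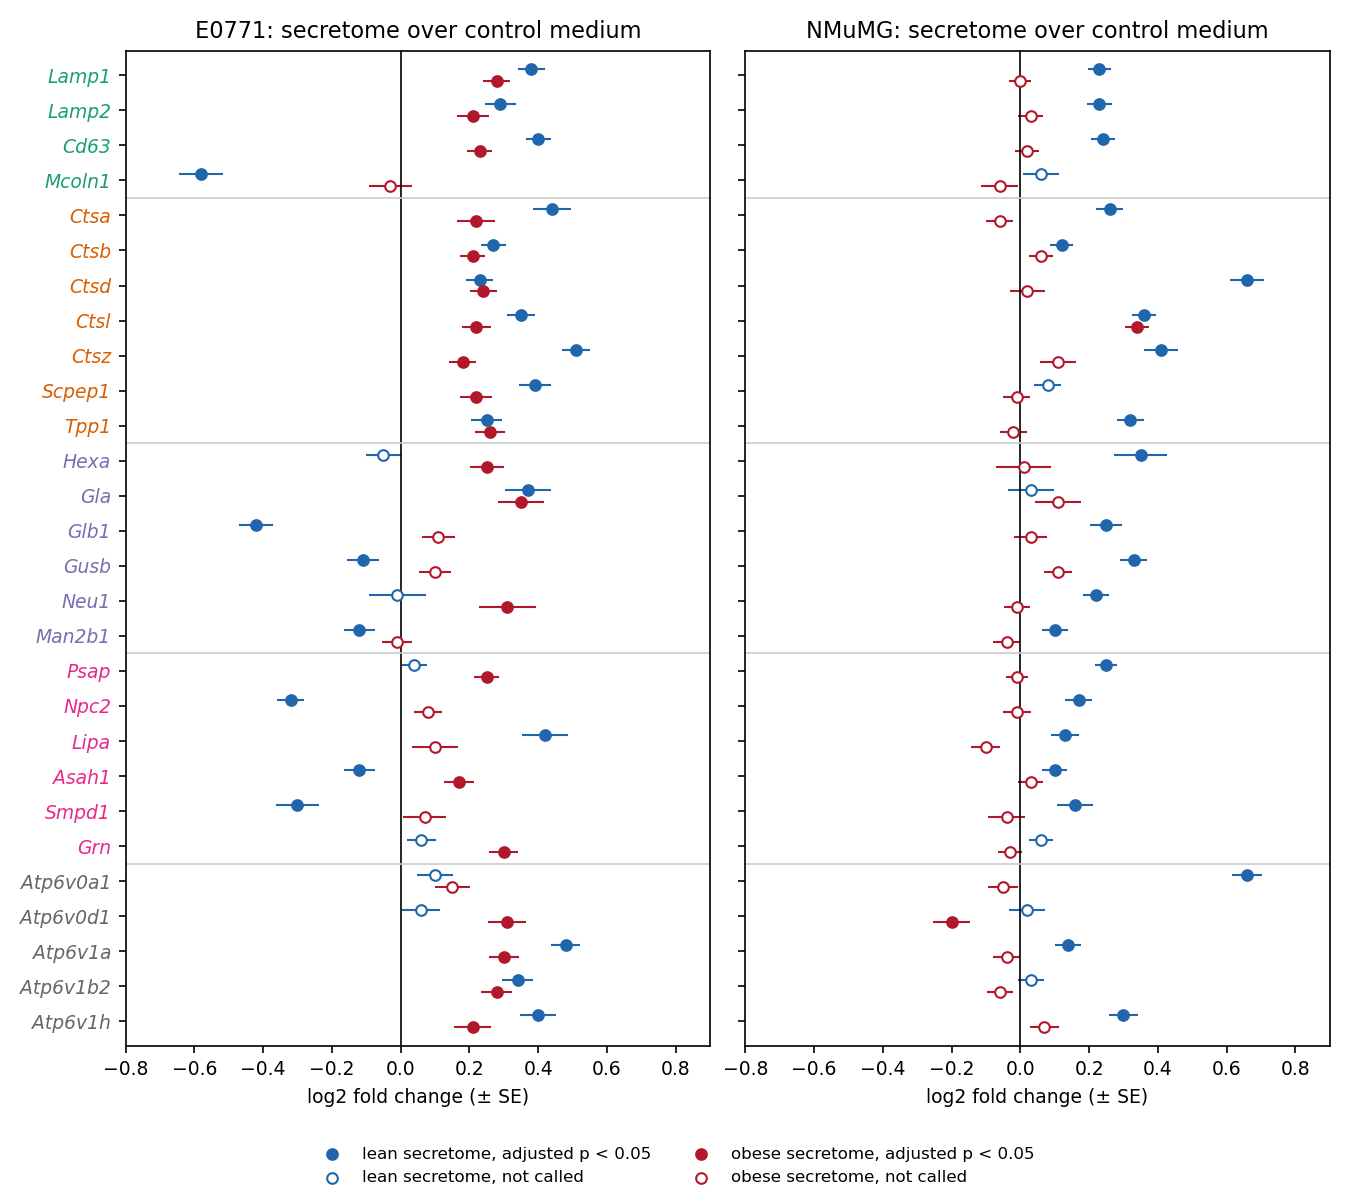
Log2 fold change over control medium (horizontal axis, bars are ± SE) of each of the 28 genes (rows, names coloured and lines drawn by role group) with lean (blue) or obese (red) secretome, in E0771 (left) and NMuMG (right); filled points have an adjusted p under 0.05 in edgeR. In E0771 the obese points lie between -0.03 and 0.35, and in NMuMG the lean points all lie above 0 while most obese points lie near it.

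The first question was how the matched secretomes, lean and obese, differed in E0771. With the lean secretome 4 of 7 proteases were called higher, 5 of 6 glycosidases lower, and 5 of 6 lipid-handling genes lower and 1 higher. edgeR called 21 of the 28 members, 9 higher and 12 lower, beside 52.7% of all tested genes (25.8% higher and 26.9% lower), and the median log2 fold change over the members was -0.01, against 0.00 over all genes. Libraries of these media did not overlap in 10 members that were higher and 12 that were lower, beside 29.9% and 30.2% of tested genes (60.1% in all). The share called was therefore not far above the background, and the order within the panel carries most of what follows.

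Among the membrane proteins, Mcoln1, the lysosomal calcium channel TRPML1, fell most. It was at 41.5, 45.5 and 38.0 CPM in the lean libraries against 56.6, 61.8 and 64.4 CPM in the obese and between 60 and 65.8 CPM in the control libraries (mean 62.3 ± 3.05, SD, n = 3). All lean libraries lay below all others, and the obese and control libraries overlapped. Lean against obese, this was a log2 change of -0.55 (SE 0.0635, adjusted p = 1.3e-07). The tetraspanin gene Cd63 rose by 0.17 and Lamp1, a major structural glycoprotein of the membrane, by 0.10 (adjusted p = 0.0261), a call that was lost without lean 2, obese 1 or obese 2. Lamp2, its relative that also serves chaperone-mediated autophagy, was not called (0.07).

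Of the 7 proteases and peptidases, 4 rose and 0 fell in E0771 with lean over obese secretome; DESeq2 also called 4 higher and 0 lower, and at an unadjusted p under 0.05 edgeR had 0 lower. Ctsz, a carboxypeptidase, was at 230.3, 230.9 and 237.3 CPM with lean and 186.3, 179.9 and 188.0 CPM with obese secretome. The groups did not overlap, and control libraries lay lower still at 158.5 to 171.5 CPM. The log2 fold change was 0.33 (SE 0.0396, adjusted p = 1.52e-07). Ctsa, the protective protein that holds sialidase and beta-galactosidase in a complex, rose by 0.23, Scpep1, a serine carboxypeptidase, by 0.16 and Ctsl, a cysteine protease, by 0.14, the last of which was not called without obese 2. The other members did not pass the test: Ctsb, a further cysteine protease, had 0.05, and Ctsd, the main aspartic protease, and Tpp1, the tripeptidyl peptidase, each had -0.01.

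Of the 6 glycosidases, 5 fell and 0 rose in E0771 (DESeq2 called 4 lower and 0 higher, and edgeR had 0 higher at an unadjusted p under 0.05). Glb1, the lysosomal beta-galactosidase that removes galactose from GM1 ganglioside, was at 73.9, 76.3 and 70.8 CPM with lean, 101.9, 112.1 and 106.3 CPM with obese secretome and 94.4, 101.8 and 100.5 CPM in control medium. The lean libraries lay below all others without overlap. This amounted to -0.54 on the log2 scale (SE 0.0485, adjusted p = 2.23e-09). Neu1 fell by 0.32, Hexa by 0.31, Gusb (beta-glucuronidase) by 0.22 and Man2b1 (alpha-mannosidase) by 0.11. The lean means of Neu1 and Hexa lay near control (20.3 against 20.5 CPM and 95 against 98.8 CPM). Their obese means were higher, at 25.4 and 117.6 CPM, and neither gene was called for lean over control. Gla was not called (0.02). Man2b1 is a weak call (adjusted p = 0.039): DESeq2, library totals alone, no filter and leaving out single lean or obese libraries were among the alternatives that lost it.

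All 6 lipid-handling members were called in E0771, 5 lower and 1 higher with the lean secretome. Npc2, which binds cholesterol in the lumen and hands it to the membrane, was at 265.1, 272.2 and 258.3 CPM with lean, 338.5, 361.4 and 351.9 CPM with obese secretome and 314.0, 339.1 and 342.6 CPM in control medium. The lean group lay below the others without overlap, with a log2 change between the secretomes of -0.40 (SE 0.0403, adjusted p = 1.04e-08). Smpd1, acid sphingomyelinase, was at 27.9, 31.2 and 27.5 CPM with lean and 35.5, 39.0 and 37.4 CPM with obese secretome. These groups did not overlap either, and Smpd1 fell by 0.37 (SE 0.0628, adjusted p = 2.2e-05). Asah1 (acid ceramidase) fell by 0.29, Grn by 0.24 and Psap, the precursor of the saposins that activate sphingolipid hydrolases, by 0.21. For Grn and Psap the lean means were 619.3 and 1216.4 CPM, near the control means of 595.6 and 1186.7 CPM. Their obese means were higher, at 732.1 and 1407.6 CPM, and neither gene was called for lean over control. Lipa rose by 0.32 (SE 0.0659, adjusted p = 0.00022), from 25.3 to 28.4 CPM in the obese libraries to 33.5 to 34.5 CPM in the lean libraries, with no overlap.

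The 5 proton pump subunits were divided in E0771. Atp6v1h, a regulatory subunit of the cytosolic V1 part, rose by 0.19 and Atp6v1a, a catalytic subunit of V1, by 0.18. Atp6v0d1, a subunit of the membrane-bound V0 part that couples it to V1, fell by 0.25 (SE 0.055, adjusted p = 0.000598). Its lean mean of 109.5 CPM lay near the control mean of 105.4 CPM, below the obese mean of 130.2 CPM. The V0 subunit Atp6v0a1 (-0.05) and the V1 subunit Atp6v1b2 (0.06) were not called.

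Set against control medium in E0771, lean secretome changed 22 members, 15 higher and 7 lower, beside 56.3% of all tested genes (27.3% higher and 29% lower), with a median log2 fold change of 0.24 over the members and -0.01 over all genes. Without overlap, 15 members were higher and 6 lower, beside 29.9% and 31.5% of tested genes (61.4% in all). All 7 proteases rose, from 0.23 for Ctsd to 0.51 for Ctsz (SE 0.0399, adjusted p = 1.15e-10). Lamp1 (0.38), Lamp2 (0.29) and Cd63 (0.40) rose as well, as did Atp6v1a (0.48), Atp6v1h (0.40) and Atp6v1b2 (0.34) of the pump, Gla (0.37) and Lipa (0.42). The 7 that fell were Mcoln1 (-0.58), Glb1 (-0.42), Npc2 (-0.32), Smpd1 (-0.30), Man2b1 (-0.12), Asah1 (-0.12) and Gusb (-0.11). Asah1 lost this call without control 2, control 3, lean 2 or lean 3, and Man2b1 without control 3. Gusb was called at an adjusted p of 0.0361 and lost under DESeq2, no filter and several left-out libraries, with adjusted p up to 0.252 over the alternatives. Lamp1 in E0771 was at 462.4, 483.2 and 502.9 CPM in control medium and at 623.9, 634.5 and 632.7 CPM with lean secretome, with the obese libraries between them at 563.1, 578.2 and 616.9 CPM. None of these 3 groups overlapped another.

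With obese secretome over control in E0771, 20 of the 28 members rose and 0 fell in edgeR, beside 2.61% of all tested genes (1.21% higher and 1.4% lower), and the median log2 fold change was 0.22 against 0.00 over all genes. DESeq2 also called 20 higher and 0 lower, and at an unadjusted p under 0.05 edgeR had 23 higher and 0 lower. The libraries of the 2 media did not overlap in 22 members, all higher with obese secretome, where 10.8% of tested genes were higher and 10.4% lower without overlap (21.2% in all). By role, 7 of 7 proteases, 4 of 5 pump subunits, 3 of 4 membrane proteins, 3 of 6 glycosidases and 3 of 6 lipid-handling genes rose.

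The size of these changes was small. Gla was at 51.1, 61.6 and 65.7 CPM in control medium and 73.8, 74.6 and 78.6 CPM with obese secretome. The groups did not overlap, control 1 was the lowest of the controls, and the log2 fold change was 0.35 (SE 0.0669, adjusted p = 0.00771). Grn was at 580.3, 589.3 and 617.2 CPM in control medium and 676.1, 758.1 and 762.1 CPM with obese secretome. It too was without overlap and rose by 0.30 (SE 0.0416, adjusted p = 0.000326), and with lean secretome it stayed close to control at 605.8, 629.0 and 623.1 CPM. The proteases rose by 0.18 (Ctsz) to 0.26 (Tpp1), Psap by 0.25, Atp6v0d1 and Neu1 by 0.31 each and Atp6v1a by 0.30. Members that were not called had values between -0.03 (Mcoln1) and 0.15 (Atp6v0a1).

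The count of 20 rested on single E0771 libraries. It was 11 without control 1 and 10 without obese 3, and 3 with both left out (Lamp1 0.22, Grn 0.26 and Atp6v1a 0.25), an alternative chosen after seeing the data that also left 26 called genes in the whole table. The log2 fold change was above 0 in 26 of 28 members with all libraries and in 26 of 28 with these libraries left out.

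**Figure D2:**
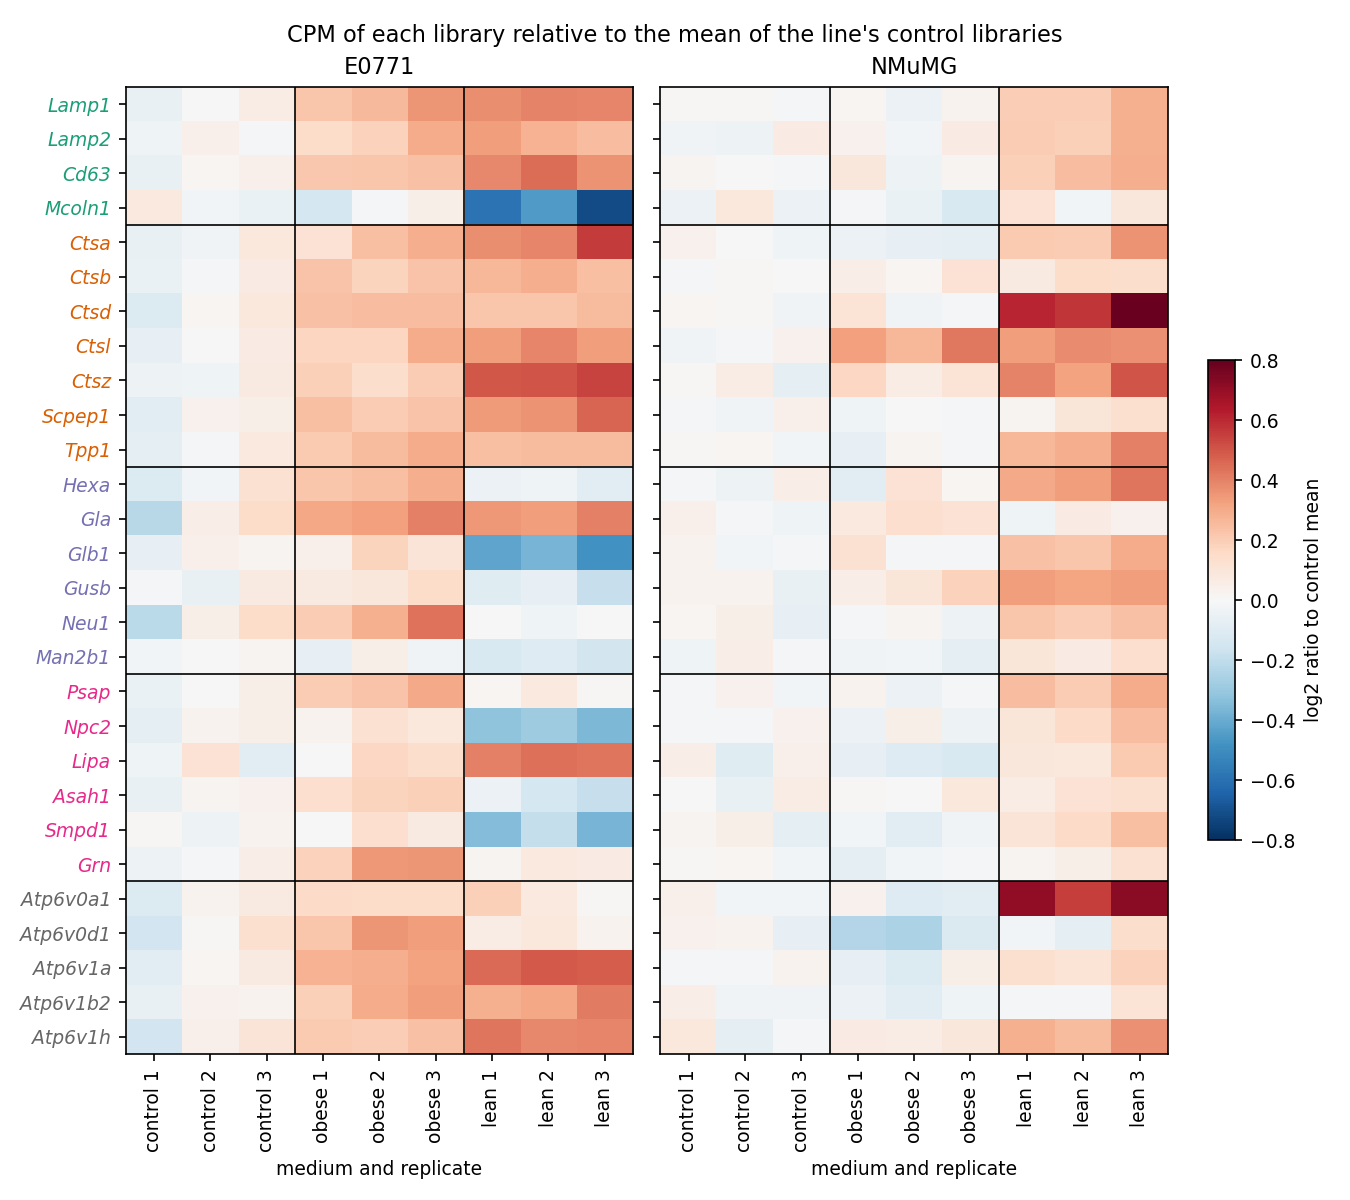
Log2 ratio of each library's CPM to the mean of the line's 3 control libraries (colour scale from -0.8 to 0.8) for the 28 genes (rows, grouped by role) in every library (columns, medium and replicate) of E0771 (left) and NMuMG (right). In E0771 the lean columns are red for all proteases and blue for Mcoln1, Glb1, Npc2 and Smpd1, control 1 is the palest or bluest control column for most genes, and in NMuMG the lean columns are mostly red while the obese columns stay near the controls except at Ctsl.

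In NMuMG the lean secretome raised members of every role group. Over obese secretome edgeR called 21 higher and 0 lower (DESeq2 also 21 and 0, and edgeR 24 and 0 at an unadjusted p under 0.05), beside 35% of all tested genes, 17.6% higher and 17.4% lower. The median log2 fold change was 0.22 over the members and 0.00 over all genes, and 23 members were higher and 1 was lower without overlap, beside 22.7% and 22.5% of tested genes (45.2% in all). By role, 3 of 4 membrane proteins, 4 of 7 proteases, 5 of 6 glycosidases, 5 of 6 lipid-handling genes and 4 of 5 pump subunits rose.

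Atp6v0a1, an isoform of the large V0 subunit that helps to place the pump in the membrane, changed most. It was at 169.3, 152.1 and 171.2 CPM with lean, 106.2, 96.5 and 97.9 CPM with obese secretome and 106.7, 102.3 and 102.1 CPM in control medium. The lean libraries lay above all others, which overlapped each other, and lean exceeded obese by 0.71 on the log2 scale (SE 0.0436, adjusted p = 8.63e-14). Ctsd was at 463.0, 450.5 and 524.1 CPM with lean, 326.6, 297.0 and 300.3 CPM with obese secretome and 306.4, 305.4 and 296.7 CPM in control medium. Again only the lean libraries stood apart, and Ctsd rose by 0.64 (SE 0.0503, adjusted p = 9.69e-08).

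Hexa, the member furthest below its E0771 level, was at 16.6, 17.0 and 18.1 CPM in NMuMG with lean and 12.7, 14.6 and 13.6 CPM with obese secretome. The groups did not overlap, and Hexa rose by 0.34 (SE 0.0775, adjusted p = 0.000743). Tpp1 was at 129.7, 131.6 and 142.7 CPM with lean and 102.9, 109.3 and 106.7 CPM with obese secretome. It likewise had no overlap and rose by 0.34 (SE 0.0398, adjusted p = 1.88e-08). The remaining called members rose by 0.10 (Grn, adjusted p = 0.0357) to 0.32 (Ctsa). Not called were Mcoln1 (0.12), Scpep1 (0.10), Atp6v1b2 (0.08), Asah1 (0.07), Ctsb (0.06), Ctsl (0.02) and Gla (-0.09). Grn lost its call with no filter, when the 2 media were fitted alone and without any of several single libraries.

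Over control medium the lean secretome gave 22 members higher and 0 lower in NMuMG by edgeR and by DESeq2 (23 and 0 at an unadjusted p under 0.05 in edgeR), beside 38.2% of all tested genes, 19.1% in each direction, with a median log2 fold change of 0.22. Without overlap, 22 members were higher and 0 lower, beside 23.9% of tested genes in each direction (47.8% in all). Atp6v0a1 and Ctsd rose by 0.66 each, Ctsz by 0.41, Ctsl by 0.36, Hexa by 0.35 and Gusb by 0.33. The lowest value of any member was 0.02 (Atp6v0d1, not called). The calls of Asah1 (0.10), Man2b1 (0.10), Lipa (0.13) and Smpd1 (0.16) were each lost when single libraries were left out, among them NMuMG lean 3 for all 4.

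The obese secretome left most of the panel near control in NMuMG. edgeR called 2 of 28, 1 higher and 1 lower, beside 5.01% of all tested genes (2.34% higher and 2.66% lower), and DESeq2 likewise called 1 higher and 1 lower. Without overlap, 4 members were higher and 3 lower, beside 10.7% and 10.5% of tested genes (21.2% in all). Ctsl was at 756.9, 722.6 and 805.3 CPM with obese secretome and 590.5, 598.4 and 617.6 CPM in control medium. The groups did not overlap, the lean libraries lay beside the obese ones at 757.8, 782.8 and 777.3 CPM, and Ctsl rose by 0.34 with obese over control (SE 0.0341, adjusted p = 2.42e-08). Atp6v0d1 was at 44.7, 44.2 and 48.6 CPM with obese secretome and 53.9, 53.6 and 50.4 CPM in control medium. It fell by 0.20 without overlap (SE 0.0543, adjusted p = 0.0258), and leaving out NMuMG control 1, control 2, obese 1 or obese 2 ended that call.

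**Figure D3:**
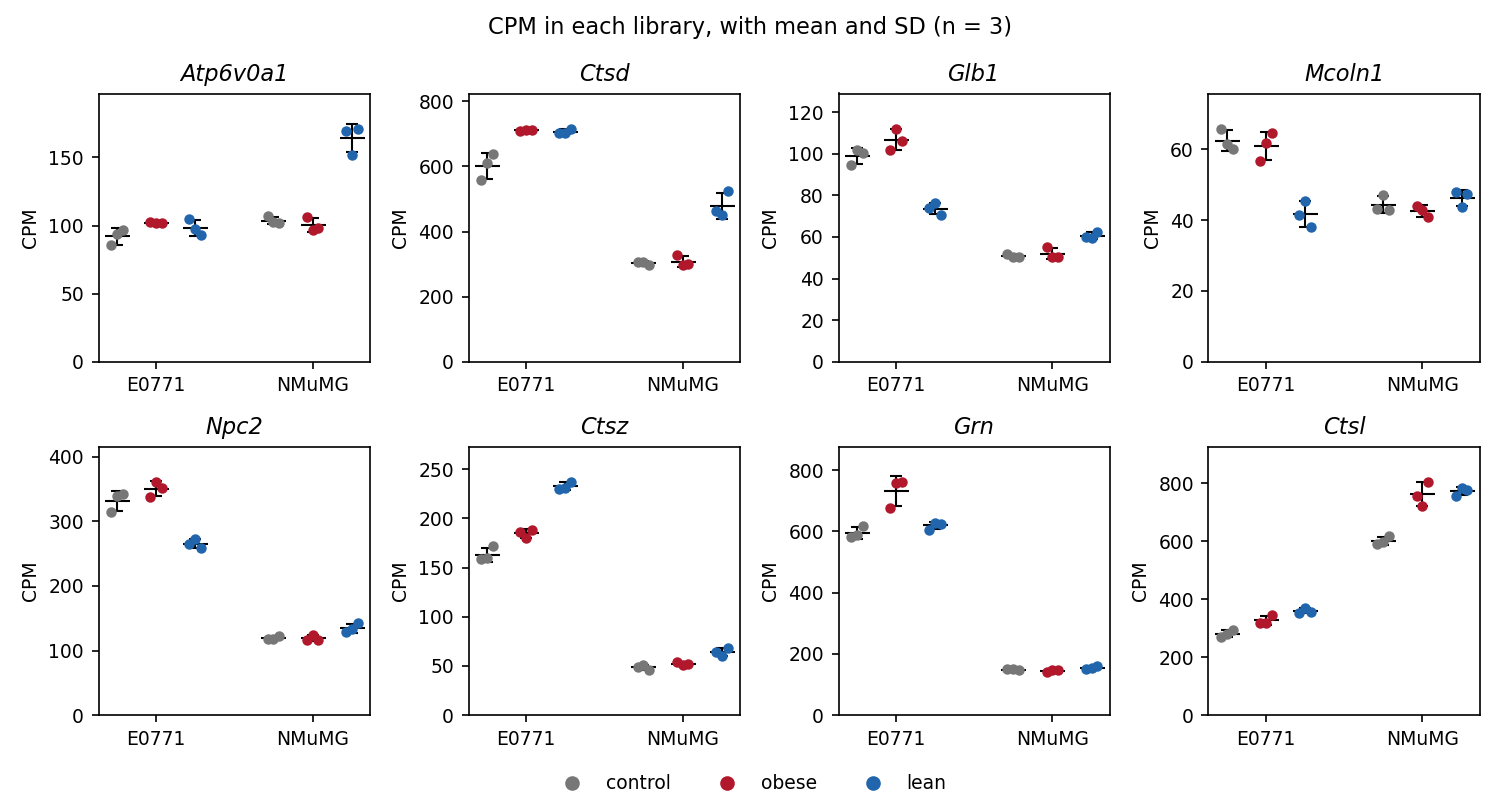
CPM (vertical axes, from 0) of 8 members in each library of E0771 and NMuMG in control medium (grey), obese (red) and lean (blue) secretome; points are libraries, the horizontal mark is the mean and the bar the SD of 3 libraries. Atp6v0a1 and Ctsd are raised by lean secretome in NMuMG, Glb1, Mcoln1 and Npc2 are lowest with lean secretome in E0771, and Ctsl in NMuMG is raised by both secretomes.

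The effect of lean over obese secretome was then compared between the lines in a fit of all 18 libraries (16529 genes tested). It differed in 15 members, each with a higher value in NMuMG than in E0771 and 0 the other way (DESeq2 also 15 and 0, and edgeR 16 and 1 at an unadjusted p under 0.05), beside 34.2% of all tested genes, 15.5% higher and 18.8% lower in NMuMG. By role these were 5 of 6 glycosidases, 5 of 6 lipid-handling genes, 2 of 7 proteases (Ctsd and Tpp1), 2 of 5 pump subunits (Atp6v0a1 and Atp6v0d1) and Mcoln1 of the 4 membrane proteins. The differences with the lowest p-values were those of Glb1 (0.74, SE 0.0683, adjusted p = 2.73e-11), Atp6v0a1 (0.75, SE 0.0704, adjusted p = 1.15e-10) and Npc2 (0.56, SE 0.0586, adjusted p = 4.18e-10).

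The per-library values of Glb1 and Npc2 in NMuMG show the other side of the fall in E0771. Glb1 in NMuMG was at 59.8, 59.3 and 62.5 CPM with lean and 55.3, 50.5 and 50.3 CPM with obese secretome. The groups did not overlap, and Glb1 rose by 0.22 (SE 0.0477). Npc2 was at 128.4, 133.2 and 142.5 CPM with lean and 116.1, 124.2 and 116.8 CPM with obese secretome, also without overlap, and rose by 0.18 (SE 0.0401). Counted over each line's own fit, 10 members were called lower in E0771 and higher in NMuMG: Hexa, Glb1, Gusb, Neu1, Man2b1, Psap, Npc2, Smpd1, Grn and Atp6v0d1. This pattern was seen in 4.2% of the 12433 genes tested in both lines. Another 7 members were called higher in both lines and 0 lower in both. Of the 12433 genes, 2834 were called in both lines, 1019 of them (36%) in opposite directions, so calls in the same direction were common. Pearson's r between the 2 sets of log2 fold changes was 0.04 over the 28 members, which share libraries within a line and are not independent.

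**Figure D4:**
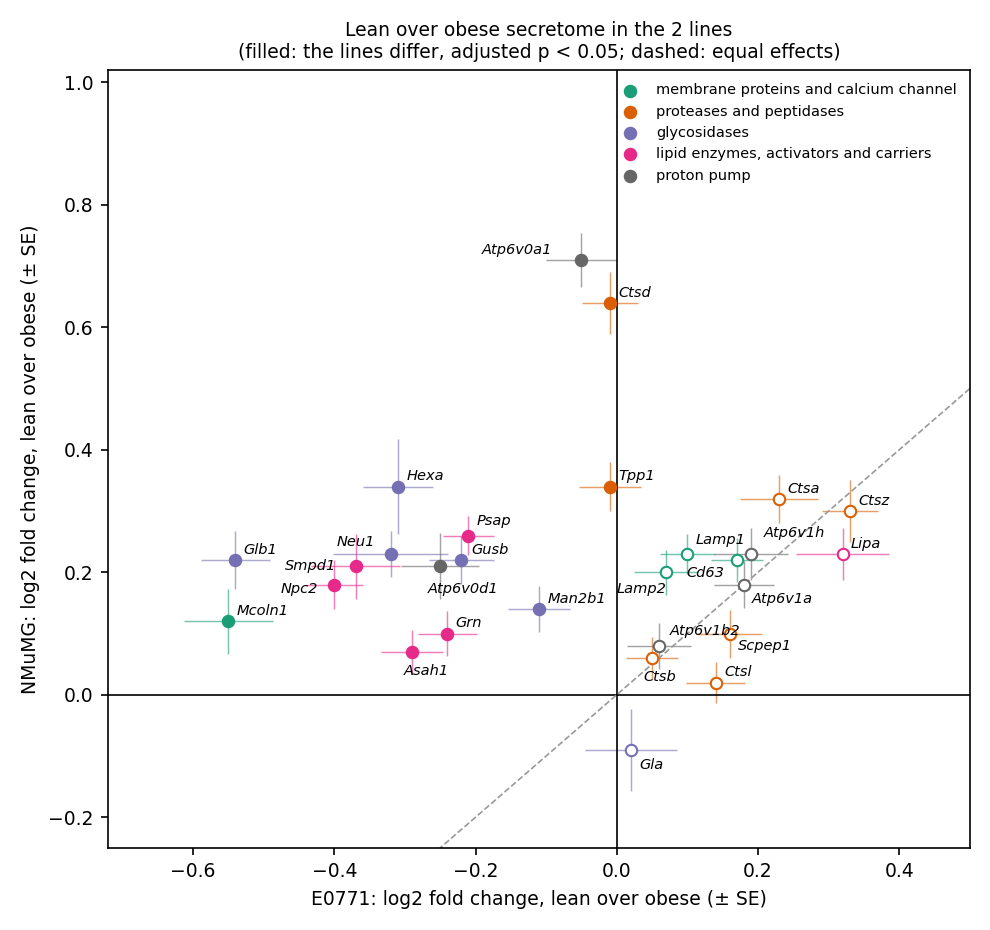
Log2 fold change of lean over obese secretome in E0771 (horizontal axis) and NMuMG (vertical axis) for the 28 genes, with bars of ± SE and colours by role group; filled points differ between the lines at an adjusted p under 0.05 and the dashed line marks equal effects. Of the glycosidases 5 of 6 and of the lipid-handling genes 5 of 6 lie in the upper left, Gla lies in the lower right and Lipa in the upper right, while Atp6v0a1 (0.71 in NMuMG) and Ctsd (0.64) lie high near 0 on the E0771 axis.

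The other contrasts also differed between lines. For lean over control, 20 members differed, 11 higher and 9 lower in NMuMG than in E0771, beside 34.5% of all tested genes (15.1% higher and 19.4% lower). Glb1 (0.65), Mcoln1 (0.62) and Atp6v0a1 (0.54) had the largest positive differences, and Gla (-0.37), Atp6v1a (-0.36) and Atp6v1b2 (-0.34) the largest negative ones. For obese over control, 11 members differed, all lower in NMuMG, and 0 were higher (DESeq2 called 13 lower and 0 higher, and edgeR had 20 and 0 at an unadjusted p under 0.05), beside 1.69% of all tested genes, 0.623% higher and 1.06% lower. They were Atp6v0d1 (-0.51, SE 0.0857, adjusted p = 0.000993), Atp6v1a, Atp6v1b2, Grn, Neu1, Lamp1, Ctsa, Tpp1, Psap, Scpep1 and Cd63. This count was 7 without E0771 control 1, E0771 obese 3 or NMuMG control 1, and 5 with both of these E0771 libraries left out. The contrasts within a line share control or secretome libraries, so their values are given side by side and not as independent results.

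Counts were also taken by E-box, as a description. With lean over control in E0771, 6 of the 9 genes with CACGTG rose and 2 fell, and 6 of the 15 without it rose and 4 fell. Of all tested genes 27.3% were called higher and 29% lower in that contrast. With lean over obese in E0771, 4 of 9 rose and 3 fell, and 4 of 15 rose and 8 fell, beside 25.8% and 26.9% of all tested genes. With obese over control in E0771 7 of 9 and 9 of 15 rose, beside 1.21% of all tested genes. Those calls depend on the E0771 libraries control 1 and obese 3, as stated above for all members. With lean over obese in NMuMG 6 of 9 and 14 of 15 rose, beside 17.6% of all tested genes. The 9 genes include Mcoln1 and Glb1, which fell most in E0771 with lean over obese secretome, and Lamp1, Ctsa and Ctsl, which rose.

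Other genes of the compartment were counted in the same fits, from lists of general knowledge that were also drawn up with earlier results of these data known. Of 15 tested V-ATPase genes outside the panel, 6 rose and 1 fell with lean over obese secretome in E0771, with Atp6v0a2 (0.36) and Atp6v1c1 (0.30) highest and the accessory subunit gene Atp6ap1 at -0.18. That is 46.7% of the list, below the 52.7% of all tested genes called in either direction (25.8% higher and 26.9% lower). In NMuMG 9 rose and 0 fell (60%, beside 35% of all tested genes; DESeq2 and the unadjusted p also gave 9 and 0), with Atp6v1f (0.40) and Tcirg1 (0.35) highest. With obese over control in E0771 6 rose and 0 fell, 40% of the list beside 2.61% of all tested genes (DESeq2 7 and 0, 11 and 0 at an unadjusted p under 0.05 in edgeR). The count of 6 became 3 without control 1, 3 without obese 3 and 1 without both. In the other lists this contrast was called less often. Of other lysosomal enzymes 8 of 27 rose (29.6%), and of other membrane proteins 2 of 21 (9.52%). Of the genes that deliver enzymes 1 of 10 rose (10%), and of the regulators 2 of 19 (10.5%). In each of these lists 0 fell.

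Of 27 tested other lysosomal enzymes and activators in E0771, 2 rose and 15 fell with lean over obese secretome (63% called, beside 52.7% of all tested genes). Naglu and Sgsh, which degrade heparan sulfate, fell by 1.19 and 0.62, and Ctso (cathepsin O) by 0.90. In NMuMG 14 of 31 rose and 1 fell (48.4% called, beside 35% of all tested genes), with Ctsh (cathepsin H) at 0.81 and Ctsf (cathepsin F) at 0.51, and Ctsc (cathepsin C) fell by 0.24. The difference between lines was called in 22 of 31, 21 of them higher in NMuMG (71% called, beside 34.2% of all tested genes). Of 21 tested other membrane proteins in E0771, 8 rose and 10 fell (85.7% called, beside 52.7% of all tested genes), with Tmem192 (0.49) and the amino acid transporter Slc38a9 (0.42) highest and Abcb9 (-0.44) and the cation channel Tpcn1 (-0.38) lowest. In NMuMG 8 of 20 rose and 0 fell (DESeq2 7 and 0, and edgeR 9 and 1 at an unadjusted p under 0.05). That is 40% of the list, near the 35% of all tested genes called in either direction, of which 17.6% were higher and 17.4% lower.

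Of 10 genes that deliver enzymes, 4 rose and 4 fell in E0771 and 4 rose and 2 fell in NMuMG with lean over obese secretome. This was 80% of the list in E0771, beside 52.7% of all tested genes, and 60% in NMuMG, beside 35%. Igf2r, the cation-independent mannose 6-phosphate receptor, was at 24.5 ± 0.502 CPM (SD, n = 3) with lean and 43.1 ± 2.94 CPM with obese secretome in E0771, and fell by 0.81 (SE 0.0627, adjusted p = 1.58e-10). In NMuMG it rose by 0.31 (SE 0.0432), from 110.5 ± 5.67 to 137.3 ± 8.92 CPM, and the lines differed by 1.11 (SE 0.0755, adjusted p = 1.16e-14). M6pr, the cation-dependent receptor, rose in both lines, by 0.49 in E0771 and by 0.29 in NMuMG. Among 19 tested regulators of lysosomal genes and mTORC1, 8 fell and 0 rose in E0771 with lean over obese secretome (DESeq2 8 and 0, and edgeR 0 higher and 9 lower at an unadjusted p under 0.05). This was 42.1% of the list, below the 52.7% of all tested genes called in either direction (25.8% higher and 26.9% lower). In NMuMG 5 of 20 rose and 5 fell (50%, beside 35% of all tested genes).

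The regulators that fell were Tfeb, Lamtor4 and Lamtor2 of the Ragulator scaffold, Tsc2, Mtor, Rragd, Zkscan3 and Flcn. Tfeb was at 12.3 ± 0.929 CPM with lean, 18.1 ± 0.811 CPM with obese secretome and 19.5 ± 1.19 CPM in control medium (SD, n = 3), so that lean differed from obese by -0.55 on the log2 scale (SE 0.0818, adjusted p = 3.59e-06). Its effect differed from that in NMuMG, where it was 0.04 (difference 0.58, adjusted p = 0.000121). Tfe3 was not called in either line (0.10 and 0.04). Rragd, which encodes a Rag GTPase, rose with obese over control secretome in E0771 by 0.60 (SE 0.0726, adjusted p = 0.000118), from 37.4 ± 3.37 to 56.7 ± 3.24 CPM.

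Markers of other kinds moved with these contrasts. In E0771 the summed stromal markers (6 genes) were between 330.6 and 370.4 CPM in the lean libraries, 643.3 and 868.8 CPM in the obese and 875.0 and 982.7 CPM in the control libraries, with Col1a1 lower with lean over obese secretome (-1.36). In the same line the 4 mesenchymal markers summed to between 1957.1 and 2189.8 CPM with lean and between 2891.1 and 3006.7 CPM with obese secretome. Most of this was Vim, which fell by 0.51, and Zeb1 fell by 0.12. Fn1 was at 0 and Cdh2 at most 0.11 CPM in E0771, whereas NMuMG had Fn1 at 881 CPM or more and Cdh2 at 242 CPM or more. In NMuMG the 9 epithelial markers summed to between 7913.9 and 8133.6 CPM with lean and between 6849.8 and 7224.4 CPM with obese secretome, and 5 of 7 tested rose (71.4%, beside 17.6% of all tested genes called higher). The 4 mesenchymal markers in NMuMG summed to between 2965.6 and 3112.7 CPM with lean and between 3555.0 and 3707.6 CPM with obese secretome, without overlap. They did not move as 1: Fn1 fell by 0.54 (adjusted p = 0.00201 in edgeR) and Vim by 0.12, Cdh2 rose by 0.13, and Zeb1 was not called (-0.07). The macrophage list in NMuMG summed to between 76.5 and 95 CPM, most of it Mrc1, and in E0771 to at most 5.97 CPM. The adipocyte list was at most 12.8 CPM in sum in every library, with Lipe, a lipase gene, its highest member in both lines. Lipe rose with lean over obese secretome in both (0.39 and 0.41), and Cidec, a lipid droplet gene, rose in NMuMG by 1.66 (SE 0.304, adjusted p = 4.4e-05), from a mean of 0.636 to 2.02 CPM. The part of these markers in the lysosomal results was not tested.

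By GENCODE M21, 11 members share exon bases with another gene, 5 of them over at least 10% of their exons: Ctsd with Gm49369 (34.4%, same strand), Ctsl with Gm47123 (26.8%, opposite strand), Ctsb with Fdft1 (12.8%), Hexa with Tmem202 (12.8%) and Ctsa with Pltp (10.5%). The strand setting of the authors' counting is not given in the sources used here, so the counts of these 5 are uncertain. For Ctsd, which is on the same strand as Gm49369, no strand setting would separate the shared bases. The same holds for smaller same-strand overlaps of Ctsl with Gm49230 (6.09%) and of Glb1 with Tmppe (5.49%). Pltp fell by 0.91 in E0771 with lean over obese secretome, where Ctsa rose.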

How the data were processed

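RNA was poly(A)-selected and sequenced with directional libraries as paired 150 bp reads, per the labels' protocols. The authors deposited raw counts per Ensembl gene ID, made with cutadapt 1.16, STAR 2.7.9a and featureCounts 1.6.3, with GRCm39 as the build, per the submitters' processing notes. The annotation release and strand setting are not given in the sources used here. Symbols came from GENCODE M21 on GRCm38, used for names and exon overlap only (52073 of 56980 IDs, 99.68% of counts). The human SkBr3 table was not used here.

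Each line's 9 libraries were fitted together in edgeR 4.0.16 (R 4.3.3): filterByExpr, TMM factors (0.987 to 1.01), robust dispersions and quasi-likelihood F tests, with Benjamini-Hochberg adjustment over all genes tested in a contrast and a call at an adjusted p under 0.05. Differences between lines were tested as interactions over all 18 libraries. CPM were computed on TMM-scaled library sizes. Replicate pairs differed by more than counting error (chi-square over its degrees of freedom 2.22 to 7.71), so no libraries were merged. The median SE of a log2 fold change was 0.0697 to 0.0725 within a line. The pipeline was tested on simulated data.

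The members and lists were chosen with earlier results of these data known. All 28 members are named; values in every library are given at least for the 4 called members of largest change with lean over obese in each line and the 3 of lowest p for the line difference, and of each other list up to 2 called genes of largest change per direction and line whose log2 mean CPM reached 2; Sgsh was added after its values were seen. Alternatives were DESeq2 1.42.0, its size factors in edgeR, library totals alone, no filter, the 2 media fitted alone, a replicate block and each library left out.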

Additional observations from a re-analysis of the deposited data

Results flagged for a closer look

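The effect of a medium differed between the lines, by the interaction test in edgeR's 18-library fit, in the members listed here. Each value is the log2 fold change in NMuMG minus that in E0771.

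For lean over obese secretome all 15 differences were positive. Among glycosidases they were 0.74 for Glb1, 0.63 for Hexa, 0.53 for Neu1, 0.42 for Gusb and 0.23 for Man2b1. Among lipid-handling genes they were 0.56 for Npc2, 0.56 for Smpd1, 0.45 for Psap, 0.34 for Asah1 and 0.32 for Grn. The others were Atp6v0a1 (0.75), Atp6v0d1 (0.45), Mcoln1 (0.66), Ctsd (0.63) and Tpp1 (0.33).

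For lean over control medium, differences were positive for Glb1 (0.65), Mcoln1 (0.62), Atp6v0a1 (0.54), Npc2 (0.46), Smpd1 (0.44), Gusb (0.42), Ctsd (0.40), Hexa (0.38), Man2b1 (0.20), Asah1 (0.20) and Psap (0.19). They were negative for Gla (-0.37), Atp6v1a (-0.36), Atp6v1b2 (-0.34), Scpep1 (-0.33), Lipa (-0.32), Ctsa (-0.21), Lamp1 (-0.18), Cd63 (-0.18) and Ctsb (-0.17).

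For obese over control medium all were negative: Atp6v0d1 (-0.51), Atp6v1a (-0.35), Atp6v1b2 (-0.34), Grn (-0.34), Neu1 (-0.34), Lamp1 (-0.29), Ctsa (-0.29), Tpp1 (-0.28), Psap (-0.26), Scpep1 (-0.25) and Cd63 (-0.21). The contrasts share libraries, so these lists are not independent of each other.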

How the results depend on the processing

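No value of a member changed sign as a call under any alternative run; over all members, contrasts and alternatives 146 values lost their call, 34 gained one and 4972 did neither. Counts of called members moved by over 1.5 times for obese over control only. In E0771 the count ran from 10 to 21 with single libraries left out, with 11 without control 1 and 10 without obese 3, and was 3 with both left out, which was chosen after seeing the data. In NMuMG it ran from 1 to 2, with 1 without control 1, control 2, obese 1 or obese 2. The difference between lines ran from 7 to 14, with 7 without E0771 control 1, E0771 obese 3 or NMuMG control 1, and was 5 with both E0771 libraries left out. The cause was not tested.

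Same-numbered libraries did not deviate together (r from -0.0942 to 0.11 over 9 pairs in E0771 and -0.0285 to 0.025 in NMuMG, with 3 of 9 libraries in each line correlating best with their own number). With the replicate block the counts for lean over obese, lean over control and obese over control were 20, 21 and 19 in E0771 and 21, 22 and 2 in NMuMG, the differences between lines gave 15, 20 and 11, and the control lines 26. With 3 libraries per group, changes near the median SE of 0.072 (E0771, lean over obese, log2 scale) were not detectable.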
